A study of Mus musculus with 24 samples.

Results

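Genes of phosphoinositide signalling, 8 in all of 18193 on the arrays, were read in 6 subsets of splenic B cells from NOD and B6 mice: the phosphoinositide 3-kinase (PI3K) subunits Pik3cd, Pik3cg, Pik3r1 and Pik3r5, the phosphoinositide phosphatases Inpp5d, Inpp5f and Inpp4b, and the kinase Akt1. All probe sets that the platform annotates to only 1 of these genes were taken, whatever their values, which gave 24 of 45101 probe sets. Pik3cd had 6 probe sets, Pik3r1 and Akt1 had 4 each, Inpp5f had 3, Pik3cg, Inpp5d and Inpp4b had 2 each, and Pik3r5 had 1. None of the 8 genes shared a probe set with another gene in the annotation.

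RNA was hybridised to Affymetrix mouse genome arrays after amplification in 2 cycles from an oligo(dT) primer. The donors were female mice of 7 weeks, of the strains NOD/ShiLtJ (NOD), which develops autoimmune diabetes spontaneously, and C57BL/6/J (B6), with no allele or agent added in either. Spleen cells of 8 mice of 1 strain were pooled, CD3+ and CD11b+ cells were depleted to a B cell purity above 93%, and the subsets T1, T2FO, T3, FO (follicular), T2MZ and MZ (marginal zone) were sorted, where T stands for transitional. The experiment was done 2 times, so each of the 12 groups had 2 arrays and each strain 2 pools. Pools were taken from the replicate numbers, which the labels do not tie to a pool. In B6 the FO and MZ arrays deviated against same-numbered arrays of the other subsets (r from -0.62 to -0.37). The B6 pools named below are therefore sets of arrays with 1 replicate number, and may mix the pools of mice.

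PI3K adds a phosphate to a membrane phosphoinositide and makes PIP3, which recruits AKT, BTK and other proteins with a PH domain to the membrane. The p110δ catalytic subunit encoded by Pik3cd is held and steadied by the p85α regulatory subunit encoded by Pik3r1, and it acts downstream of the B cell receptor. The p110γ subunit encoded by Pik3cg works with p101, the product of Pik3r5, downstream of G protein-coupled receptors such as those for chemokines. The phosphatases act on the products: SHIP-1, encoded by Inpp5d, removes a phosphate from PIP3, INPP4B removes one from the product of SHIP-1, and INPP5F, also called SAC2, is a SAC-domain phosphatase of endosomal phosphoinositides. In B cells PI3K and AKT signalling bears on survival, on the choice between marginal zone and follicular fates and, through FOXO factors, on recombination and migration genes.

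The promoters shown first are those of Inpp5f, the gene called between the strains over subsets, and of Pik3cg, the catalytic subunit gene called between the arrays labelled T1. They are RefSeq sequences of the build GRCm38.p6, from 250 bases before to 50 bases after the annotated start, and no NOD sequence was used here. In the Inpp5f promoter, at chr7:128611115-128611414 on the + strand, capitals mark the GC box GGGCGG and its reverse complement CCGCCC. In the Pik3cg promoter, at chr12:32208610-32208909 on the - strand, the first of 2 annotated starts, capitals mark the reverse complement ACTTCC of the ETS core GGAAGT.
Inpp5f: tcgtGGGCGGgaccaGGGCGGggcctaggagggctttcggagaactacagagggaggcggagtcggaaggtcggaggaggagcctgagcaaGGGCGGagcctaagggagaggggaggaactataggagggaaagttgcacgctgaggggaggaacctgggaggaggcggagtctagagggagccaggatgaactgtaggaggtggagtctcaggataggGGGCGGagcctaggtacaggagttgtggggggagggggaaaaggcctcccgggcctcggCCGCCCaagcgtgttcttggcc
Pik3cg: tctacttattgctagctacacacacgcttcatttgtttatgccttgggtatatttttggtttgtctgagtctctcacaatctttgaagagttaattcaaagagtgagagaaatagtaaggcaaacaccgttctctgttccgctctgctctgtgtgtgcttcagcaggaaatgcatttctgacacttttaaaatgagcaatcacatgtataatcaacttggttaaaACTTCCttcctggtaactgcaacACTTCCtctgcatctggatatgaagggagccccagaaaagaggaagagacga
Both strands were searched for each motif, and the motifs do not overlap each other. The Inpp5f promoter had 5 matches of the GC box, none of the ETS core and 65.0% G and C. The Pik3cg promoter had 2 matches of the ETS core, none of the GC box and 40.7% G and C. Among 32851 mouse promoters of this length, 35.7% held the GC box and 23.8% the ETS core. The 8 genes had 13 annotated promoters, and the ETS core also occurred at the other start of Pik3cg (2 matches), in 1 of the 3 of Pik3cd (1 match) and in that of Inpp5d (2 matches). The GC box also occurred in 2 of the 3 of Pik3cd (1 and 3 matches), 1 of the 2 of Pik3r1 (4), that of Pik3r5 (4), that of Inpp4b (2) and 1 of the 2 of Akt1 (5). These matches describe letters and do not mark bound sites.

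The values are log values taken as log2, each centred by its probe set's own median over the 24 arrays, so that they show differences between arrays and no expression level. A probe set whose strains do not overlap has its 0 midway between them by this construction. Only 2 arrays a group limit the precision, and the spread between replicates of the member probe sets was 0.374 in NOD and 0.557 in B6 (root mean square SD). Differences were tested with limma over all 45037 non-control probe sets, and a probe set was called at a Benjamini-Hochberg adjusted p under 0.05. In bulk samples fewer cells of a type and less RNA per cell cannot be told apart.

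Some properties of the arrays moved with the strains or groups. The 5' minus 3' signal of the beta-actin control ran from -0.676 to 0.633 over the NOD arrays (n = 12). In B6 it lay between -3.94 and -3.09 in 6 arrays, between -1.11 and -0.586 in 4 arrays (replicate 1 of T1, T2FO, T3 and T2MZ), and at 0.408 and 0.423 in 2 arrays (replicate 2 of FO and MZ). These are called the low, middle and high 5' arrays of B6 below. The gate transcripts went against several NOD labels, and T1 is given here by Cr2 and Cd93, of 6 gate genes. In NOD arrays with the label T1 the CD21 gene Cr2 was at 1.20 and Cd93 at -2.09. They were at -1.72 and 3.06 in B6 T1, and at 0.86 and -0.80 in B6 MZ. Of the 24 gate probe sets, 6 were called between the strains in T1, 2 higher and 4 lower in NOD. That comparison called 6.31% of all probe sets. NOD groups are therefore named by their label throughout. The median of 20 myeloid probe sets was 2.25 and 1.67 in the NOD arrays labelled FO and 1.22 in replicate 2 of B6 MZ, and between -0.23 and 0.36 in the other arrays. The median of 13 plasma cell probe sets was 1.12 and 1.13 in the NOD arrays labelled T2FO and at most 0.38 elsewhere. The median of 6 NK cell probe sets was 1.00 in replicate 2 of B6 T2FO and at most 0.26 elsewhere. T cell probe sets had medians between -0.16 and 0.19, and none of the 18 was called between the strains over subsets.

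Inpp5f set the strains apart by 1 of its probe sets. At probe set 1442100_at the NOD arrays labelled T1 read 2.17 and 2.32, those labelled T2FO 1.73 and 2.02, T3 1.29 and 1.87, FO 2.19 and 2.11, T2MZ 1.69 and 1.49, and MZ 1.93 and 2.62. The B6 arrays read -1.66 and -1.70 in T1, -2.75 and -2.17 in T2FO, -2.21 and -2.02 in T3, -2.30 and -1.79 in FO, -1.97 and -2.04 in T2MZ, and -2.29 and -1.29 in MZ. All 12 NOD arrays lay above all 12 B6 arrays, and within each strain the 6 groups stayed close together. Over the subsets NOD was higher by 3.97 ± 0.17 (SE, log2, 2 pools each), with an adjusted p of 0.00937 by limma on the pool means. The pools stood at 1.83 and 2.07 in NOD, against -2.20 and -1.83 in B6. This was the only call among the 24 member probe sets, or 1 of 24, where 3.02% of all probe sets were called (1.64% higher and 1.38% lower in NOD). Of the members, 2 of 24 had every NOD array above every B6 array (1.51% of all probe sets) and 0 had every NOD array below (0.89% of all).

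**Figure D1:**
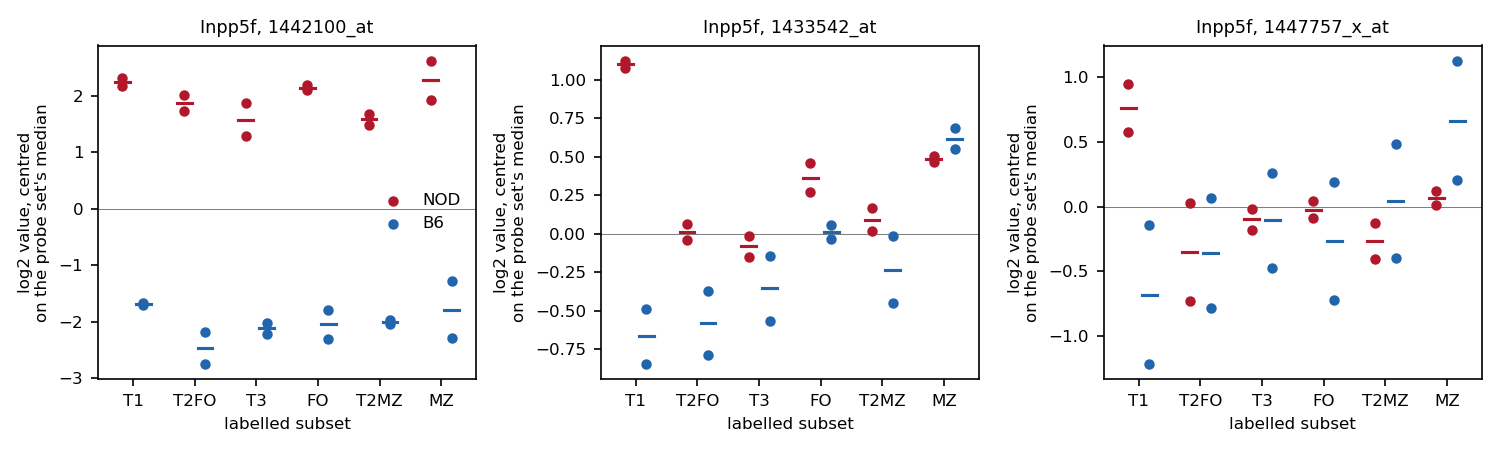
Values of the 3 Inpp5f probe sets on each array (log2, centred per probe set; each panel has its own axis), by labelled subset, NOD in red left of B6 in blue, with bars at the group mean of 2 arrays. Probe set 1442100_at divides the strains in every subset, while the group means of 1433542_at and 1447757_x_at are highest under the label T1 in NOD and in MZ in B6.

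The difference at 1442100_at was of like size in each class of B6 arrays. NOD averaged 1.95 (n = 12), against -1.54 in the 2 high 5' arrays of B6, -2.15 in the 4 middle arrays and -2.09 in the 6 low arrays, which are differences of 3.49, 4.10 and 4.04. With the arrays labelled FO or those labelled T2FO left out in both strains it was 3.92 (adjusted p = 0.0267, limma) and 3.89 (adjusted p = 0.0054). Within the labelled subsets it was 3.92 ± 0.31 in T1, 4.34 in T2FO, 3.70 in T3, 4.20 in FO, 3.59 in T2MZ and 4.06 in MZ (all with the same SE), with adjusted p from 2.59e-06 to 1.87e-05. The call over subsets was lost without 1 NOD pool, at adjusted p = 0.15 without pool 1 (difference 4.09) and 0.146 without pool 2 (3.85). The call over subsets was lost with the 5' minus 3' signal as a covariate (5.12, adjusted p = 0.0877, limma). That fit has 4 pool means, and 8 of the 12 B6 arrays lie below every NOD array in this signal. It can therefore hardly tell strain from signal. With the covariate limma called 0 of all 45037 probe sets, and 13.1% of them had an unadjusted p under 0.05.

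The other Inpp5f probe sets did not show this difference between the strains. At 1433542_at NOD lay between -0.15 and 1.13 with a median of 0.22, against -0.85 to 0.69 with a median of -0.26 in B6, and the difference over subsets was 0.53 ± 0.14 (adjusted p = 0.134). At 1447757_x_at, whose suffix marks probes that may also match other transcripts, NOD lay between -0.73 and 0.94 and B6 between -1.21 and 1.13, and the difference was 0.13 ± 0.15 (adjusted p = 0.763). Over the 12 group means 1433542_at and 1447757_x_at had r = 0.85, whereas 1442100_at had r = 0.60 with the first and 0.22 with the second. These correlations describe 12 points that share arrays and pools. Probe positions and sequences were not used here, so which part of the transcript each probe set reads was not examined.

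What 1433542_at did show was a pattern among subsets. In NOD it read 1.13 and 1.08 in the arrays labelled T1, 0.07 and -0.04 in T2FO, -0.01 and -0.15 in T3, 0.27 and 0.46 in FO, 0.01 and 0.17 in T2MZ, and 0.46 and 0.50 in MZ. In B6 it read -0.85 and -0.49 in T1, -0.79 and -0.37 in T2FO, -0.57 and -0.15 in T3, -0.03 and 0.06 in FO, -0.45 and -0.02 in T2MZ, and 0.55 and 0.69 in MZ. The arrays highest in each strain were those labelled T1 in NOD and those of MZ in B6, and neither pair overlapped any other array of its strain. The same arrays stood highest of their strain in 12 marginal zone marker probe sets of 7 genes, Cr2 among them. Their median was 2.90 and 2.80 on NOD arrays of label T1, 1.03 and 1.46 on those of label MZ and -0.52 to 0.11 on the rest of NOD, against 1.72 and 2.08 in B6 MZ, 0.68 and 0.39 in B6 T2MZ and -0.54 to 0.00 in the rest of B6. Between the strains in T1, 11 of the 12 were called higher and 1 lower, and their part in the pattern of 1433542_at was not tested. In order of group means the NOD labels ran T3, T2FO, T2MZ, FO, MZ and T1, and B6 ran T1, T2FO, T3, T2MZ, FO and MZ. Neighbours in the B6 order had overlapping arrays up to FO, and both MZ arrays lay above FO. In NOD, T3, T2FO and T2MZ overlapped with their neighbours, FO and MZ lay close together above them, and T1 stood apart at the top.

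The B6 subsets differed at 1433542_at in the limma F test (adjusted p = 0.0115), as did the NOD labels (adjusted p = 0.0155), and in both it was the 1 of 24 member probe sets called (1.41% and 1.77% of all probe sets). The interaction of strain and labelled subset was also called, at adjusted p = 0.0129, again 1 of 24 where 1.35% of all were called. In T1 the labelled NOD arrays were higher than B6 T1 by 1.77 ± 0.19 (adjusted p = 3.36e-05), whereas against B6 MZ they were higher by 0.48 ± 0.19 (adjusted p = 0.276). The last contrast was added because of the gate transcripts. In it 1 of 24 members was called (2.16% of all probe sets), which was 1442100_at at 4.03 ± 0.31 (adjusted p = 4.78e-06). The interaction lost its call without NOD T1 replicate 1 (adjusted p = 0.0976), NOD T1 replicate 2 (0.0789) or B6 T1 replicate 1 (0.105). The F test of the NOD labels lost it without either array labelled T1 (0.169 and 0.133), and that of B6 without replicate 2 of MZ (0.104).

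Mature B6 cells, FO and MZ, read between -0.03 and 0.69 at 1433542_at, against -0.85 to -0.15 in B6 T1, T2FO and T3. T2MZ was left out of the transitional group, here and in this comparison below. Its arrays read -0.45 and -0.02 and overlapped those of FO. The groups compared did not overlap, and the difference of mature minus transitional was 0.85 ± 0.12 (adjusted p = 0.00124, limma). It was the 1 of 24 members called in this comparison, where 3.98% of all probe sets were called (2.06% higher and 1.92% lower in mature cells). The middle 5' arrays of B6 averaged -0.66 at this probe set and the low 5' arrays -0.08. Among the low 5' arrays alone, MZ read 0.55 and FO -0.03, against -0.49 in T1, -0.37 in T2FO and -0.15 in T3. The remaining low 5' array, replicate 2 of T2MZ, read -0.02, just above FO. The probe set 1447757_x_at gave 0.58 ± 0.29 for the same difference (adjusted p = 0.348).

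The 5-phosphatase gene Inpp5d was read by 2 probe sets. At 1424195_a_at NOD lay between -0.10 and 1.00 with a median of 0.29, against -0.68 to 0.26 with a median of -0.26 in B6, and the strains overlapped. The difference over subsets was 0.60 ± 0.14 (adjusted p = 0.117), and at 1418110_a_at it was 0.25 ± 0.16 (adjusted p = 0.539), both by limma. Neither was called in any labelled subset or among the subsets of a strain.

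Inpp4b had the second largest difference between the strains, at 1457359_at, without passing the test. NOD read 0.87 and 0.64 in the arrays labelled T1, 1.31 and 1.22 in T2FO, 0.77 and 0.29 in T3, 0.72 and 0.89 in FO, 0.46 and 1.24 in T2MZ, and 1.05 and 0.98 in MZ. B6 read -2.93 and -0.29 in T1, -2.60 and -0.63 in T2FO, -3.00 and -1.04 in T3, -0.84 and -1.75 in FO, -3.27 and -0.81 in T2MZ, and -1.33 and -1.09 in MZ. Every NOD array lay above every B6 array, but the B6 replicates of T1, T2FO, T3 and T2MZ lay far apart, with replicate 1 the lower.

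Over the subsets the difference at 1457359_at was 2.50 ± 0.47 (adjusted p = 0.079, limma on pool means). The B6 values differed between the 5' signal classes without following their order: they averaged -1.42 in the high 5' arrays, -2.95 in the middle arrays and -0.82 in the low arrays, against 0.87 in NOD. The high and low arrays overlapped, and the 4 middle arrays, all of replicate 1, lay below both. The difference from NOD was 2.29, 3.82 and 1.69. With the 5' minus 3' signal as a covariate, a fit that can hardly tell strain from signal, the difference over subsets was 6.99 (adjusted p = 0.0604, limma). Without B6 pool 1, which holds the 4 middle arrays, it was 1.80, and without B6 pool 2 it was 3.20. Each of these fits leaves 1 B6 pool, so its test cannot measure the spread between B6 pools and is not given. The other Inpp4b probe set, 1441416_at, lay between -0.18 and 0.68 in NOD and between -0.34 and 0.09 in B6, with a difference of 0.21 ± 0.10 (adjusted p = 0.379).

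**Figure D2:**
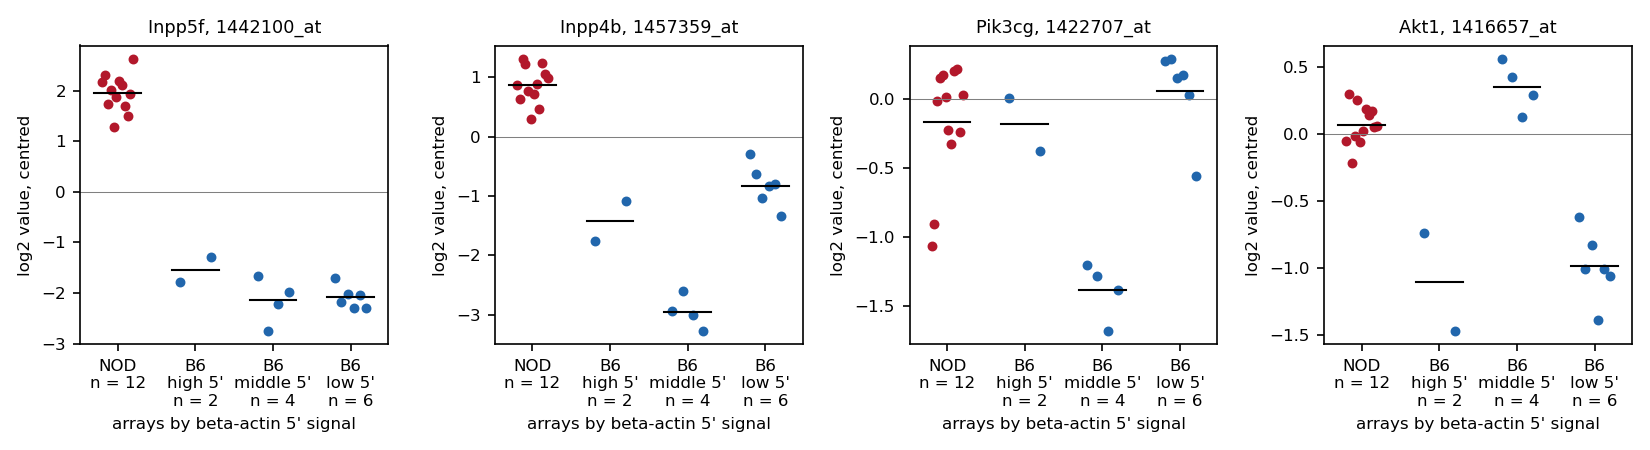
Values of 4 member probe sets (log2, centred; each panel has its own axis) in the 12 NOD arrays (red) and in the B6 arrays (blue) of high, middle and low 5' beta-actin signal, with bars at the mean. Inpp5f 1442100_at lies far below NOD in all B6 classes, whereas Inpp4b 1457359_at and Pik3cg 1422707_at are lowest in the 4 middle arrays and Akt1 1416657_at is highest there.

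Of the catalytic subunits, Pik3cg differed in the arrays labelled T1. At 1422708_at the NOD arrays labelled T1 read -1.14 and -0.86, against 0.13 and 0.53 in B6 T1. They were the lowest of all 24 arrays, the next being -0.51 in an NOD array labelled FO. The difference was -1.33 ± 0.30 (adjusted p = 0.0136, limma). Against B6 MZ, at -0.25 and -0.19, the same arrays were at -0.78 ± 0.30 (adjusted p = 0.272). Over the subsets NOD lay between -1.14 and 0.32, against -0.25 to 0.69 in B6. The difference of -0.38 ± 0.11 was not called (adjusted p = 0.183, limma). It was 0.33 with the 5' minus 3' signal as a covariate (adjusted p = 0.834, limma), a fit that can hardly tell strain from signal. The call in T1 was lost without NOD T1 replicate 1 (-1.19, adjusted p = 0.141) and without B6 T1 replicate 2 (-1.13, adjusted p = 0.115).

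The other Pik3cg probe set, 1422707_at, was alike in NOD and not in B6. Its NOD arrays labelled T1 read -1.06 and -0.90, also the lowest of NOD, and over the 6 NOD group means the probe sets had r = 0.99. In B6 T1 it read -1.20 and 0.27, and over the 6 B6 group means r was 0.27. The 4 middle 5' arrays of B6 stood between -1.68 and -1.20 and the 6 low arrays between -0.56 and 0.29. With such a spread in B6 T1, the difference there was -0.52 ± 0.60 (adjusted p = 0.752). Over the subsets it was 0.30 ± 0.36 (adjusted p = 0.787), so the probe sets of Pik3cg differed in sign between the strains.

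Pik3cd, the subunit most tied to B cell receptor signalling, was not called in any comparison. Its most variable probe set, 1422992_s_at, read 0.80 and -0.17 on the NOD arrays of label T1, 0.14 and 0.00 in T2FO, 1.51 and -0.40 in T3, 2.01 and 0.65 in FO, 0.89 and 0.97 in T2MZ, and 1.00 and 0.70 in MZ. B6 read -0.31 and -0.41 in T1, -0.58 and -0.44 in T2FO, -0.18 and 0.00 in T3, -0.23 and 1.64 in FO, 0.14 and -0.09 in T2MZ, and -0.47 and -0.27 in MZ. FO was the highest group of each strain, but its replicates lay far apart. The myeloid probe sets had medians of 2.25 and 1.67 in the NOD FO arrays and 0.36 in replicate 2 of B6 FO. Their median was 1.22 in replicate 2 of B6 MZ, which read -0.27 at 1422992_s_at. It was -0.13 in replicate 1 of the NOD arrays labelled T3, which read 1.51. Replicate 2 of B6 FO is a high 5' array and replicate 1 a low one. The part of myeloid transcripts or 5' signal in the FO level was not tested. Over the subsets the difference was 0.77 ± 0.30 (adjusted p = 0.271, limma). The other 5 Pik3cd probe sets gave differences of 0.03 to 0.50 with adjusted p from 0.136 to 0.986. At 1443798_at, the least like the others, the middle 5' arrays of B6 averaged 0.81 and the low 5' arrays -0.32.

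The regulatory subunits were measured by 5 probe sets. Those of Pik3r1 gave differences over subsets of 0.33 to 0.62, with adjusted p from 0.181 to 0.719, and none was called in a labelled subset. Its most variable probe set, 1425514_at, averaged 0.18 in NOD, against -0.59 in the high, -1.11 in the middle and 0.05 in the low 5' arrays of B6. Pik3r5 at 1434980_at lay between -0.40 and 0.76 with a median of 0.31 in NOD, against -0.90 to 0.10 with a median of -0.17 in B6, a difference over subsets of 0.51 ± 0.13 (adjusted p = 0.137). Of the 24 gate probe sets, 3 were called between the strains in T3, all lower in NOD (1.72% of all probe sets were called). The part of the labels in what follows was not tested. In T3 Pik3r5 read 0.58 and 0.35 in the labelled NOD arrays, against -0.58 and -0.66 in B6. That difference of 1.09 ± 0.24 was called (adjusted p = 0.0355), and lost its call without any 1 of the 4 arrays (adjusted p = 0.291 without NOD T3 replicate 1, 0.0962 without replicate 2, and 0.123 and 0.124 without B6 T3 replicates 1 and 2).

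Akt1, the kinase recruited by the lipids that PI3K makes, was read by 4 probe sets. At 1425711_a_at NOD read 1.32 and 0.53 in the arrays labelled T1, 0.02 and 0.49 in T2FO, 1.46 and -0.02 in T3, 1.51 and 0.59 in FO, 1.04 and 1.00 in T2MZ, and 1.05 and 1.00 in MZ. B6 read -0.36 and -0.09 in T1, -0.39 and -0.66 in T2FO, -0.12 and -0.38 in T3, -0.42 and 0.47 in FO, -0.21 and -0.23 in T2MZ, and -0.33 and -0.30 in MZ. The strains overlapped only through replicate 2 of B6 FO and 2 NOD arrays, T2FO replicate 1 (0.02) and T3 replicate 2 (-0.02). The difference over subsets was 1.08 ± 0.18 and did not pass the test (adjusted p = 0.0645, limma).

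The remaining Akt1 probe sets were further from passing. At 1416657_at the difference was 0.63 ± 0.27 (adjusted p = 0.333), and the B6 arrays averaged 0.35 in the middle, -0.99 in the low and -1.11 in the high 5' arrays, against 0.07 in NOD. The low and high arrays overlapped, and the middle arrays stood apart above them. The last 2, 1440950_at and 1442759_at, gave 0.12 and 0.08 (adjusted p = 0.735 and 0.809). At 1416657_at mature B6 cells were lower than transitional ones by -0.94 ± 0.32 (adjusted p = 0.128), and 3 of the 4 middle arrays are among the transitional ones.

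**Figure D3:**
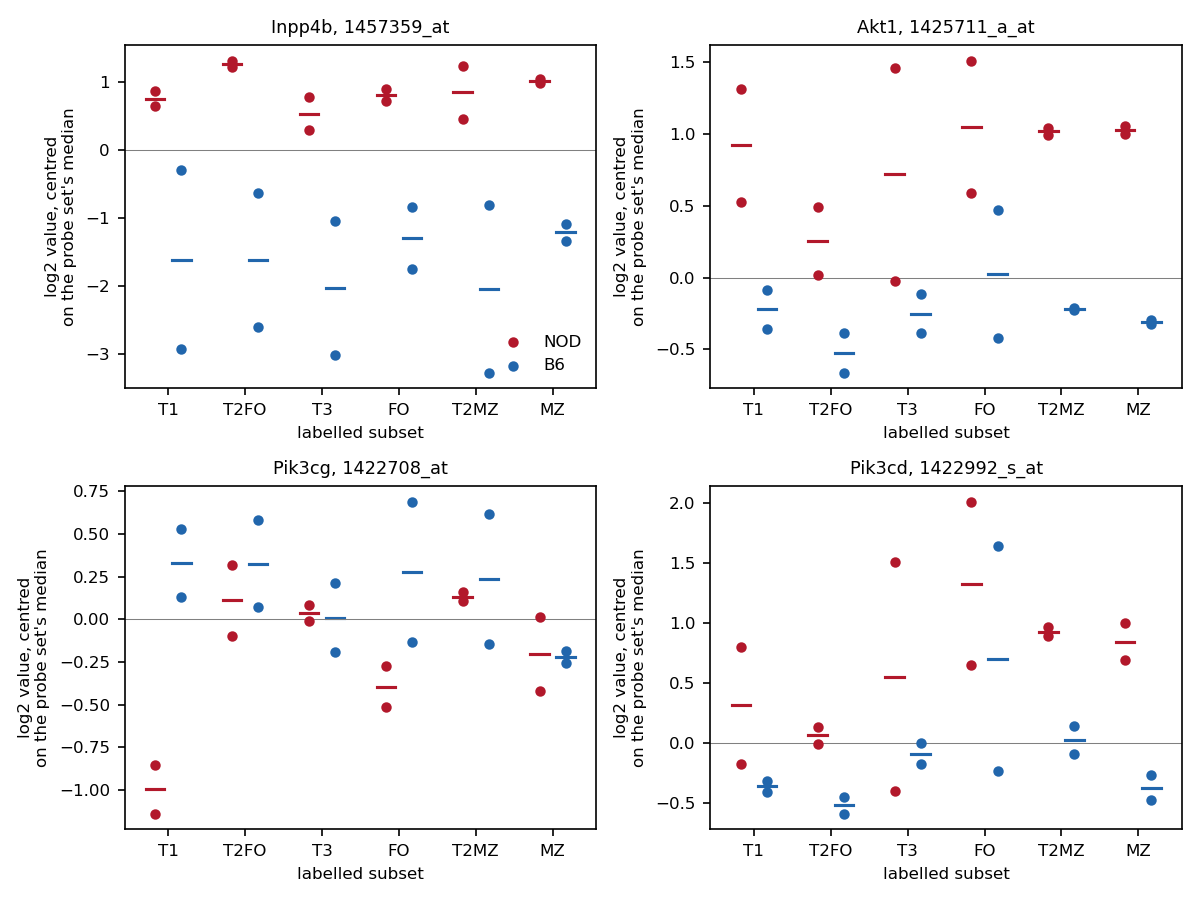
Values of Inpp4b 1457359_at, Akt1 1425711_a_at, Pik3cg 1422708_at and Pik3cd 1422992_s_at on each array (log2, centred per probe set; each panel has its own axis), by labelled subset, NOD in red left of B6 in blue, with bars at the mean of 2 arrays. Pik3cg is lowest in the NOD arrays labelled T1, and the B6 replicates of Inpp4b lie far apart in T1, T2FO, T3 and T2MZ.

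Across the 24 member probe sets the difference of NOD minus B6 over subsets was positive in 23 and negative in 1, with a median of 0.46 and a range of -0.38 to 3.97. Over all probe sets 41.7% were positive and the median was -0.03. With 1 pool left out it was positive in 21 or 22, after quantile normalization in 22, and with the 5' minus 3' signal as a covariate, which moved the median of all probe sets to -0.14, in 18. Of the members, 10 of 24 had an unadjusted p under 0.05, as did 19% of all probe sets. The members share arrays and, within a gene, a transcript, so they are not 24 independent readings. The B cell marker probe sets, 6 of 4 genes, also had a positive median difference, 0.53, with 0 called.

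**Figure D4:**
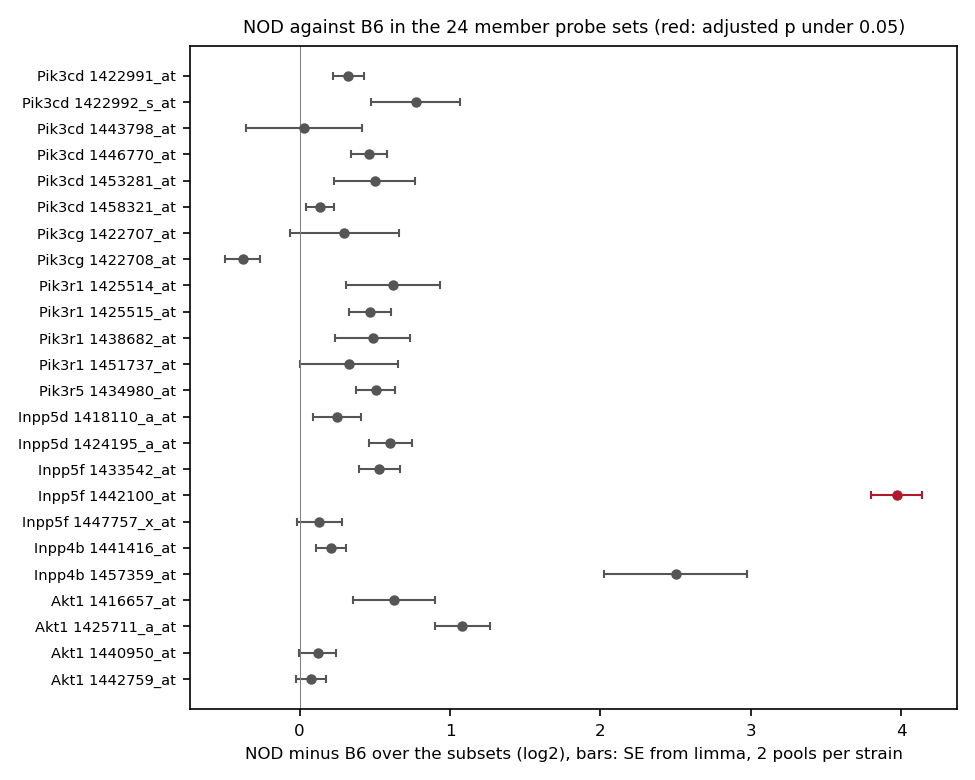
Difference of NOD minus B6 over the subsets for the 24 member probe sets (log2, bars are SE from limma on 2 pools per strain). Inpp5f 1442100_at (red, 3.97) was called, Inpp4b 1457359_at (2.50) and Akt1 1425711_a_at (1.08) follow, and Pik3cg 1422708_at (-0.38) is the one below 0.

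With the probe sets of a gene averaged, 1 of 8 genes was called (2.38% of 18193 genes): Inpp5f at 1.54 ± 0.13 (adjusted p = 0.0182, limma). The count was 0 with the replicate number as a block, with the numbers of B6 FO and MZ crossed and with the 5' minus 3' covariate. Fits without 1 pool leave 1 pool in that strain, so their counts are not given. The average joins a difference of 3.97 with those of 0.53 and 0.13. Inpp4b was at 1.35 ± 0.25 (adjusted p = 0.071), Akt1 at 0.48 ± 0.10 (0.0885), Pik3r5 at 0.51 ± 0.12 (0.125), Pik3cd at 0.37 ± 0.10 (0.145), Inpp5d at 0.43 ± 0.13 (0.193), Pik3r1 at 0.48 ± 0.20 (0.326) and Pik3cg at -0.04 ± 0.22 (0.964).

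Within the labelled subsets the count of called members was 3 of 24 in T1, where 6.31% of all probe sets were called (3.8% higher and 2.51% lower in NOD): both Inpp5f probe sets named above were higher and Pik3cg 1422708_at was lower. It was 2 of 24 in T3 (1.72% of all), Inpp5f 1442100_at and Pik3r5. It was 1 of 24, Inpp5f 1442100_at, in T2FO (2.58% of all), FO (2.88%), T2MZ (2.73%) and MZ (2.52%). With strain and replicate number as a block the counts were 7 of 24 in T1 (10.1% of all probe sets), 4 in T2FO (4.57%), 5 in T3 (4.09%), 2 in FO (4.13%), 2 in T2MZ (5.5%) and 3 in MZ (3.82%). These comparisons set arrays of the same label side by side, and the gate transcripts of the labels do not match in T1. Of the 24 gate probe sets, 4 were also called in T2FO, 3 in T3, 1 in FO, 2 in T2MZ and 2 in MZ.

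Between the mature subsets of B6, MZ against FO, 0 of 24 members were called by limma (0.564% of all probe sets), and 3 had an unadjusted p under 0.05, as did 6.04% of all. With the replicate block 1 was called (0.921% of all), and in mature against transitional B6 cells 2 were (7.63% of all). The 3 were Inpp5f 1433542_at at 0.61 ± 0.19 (adjusted p = 0.311), Pik3r1 1425515_at at -0.77 ± 0.36 (0.822) and Pik3cd 1446770_at at -0.53 ± 0.24 (0.813). Each of these subsets pairs a low 5' array with a high 5' array.

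**Figure D5:**
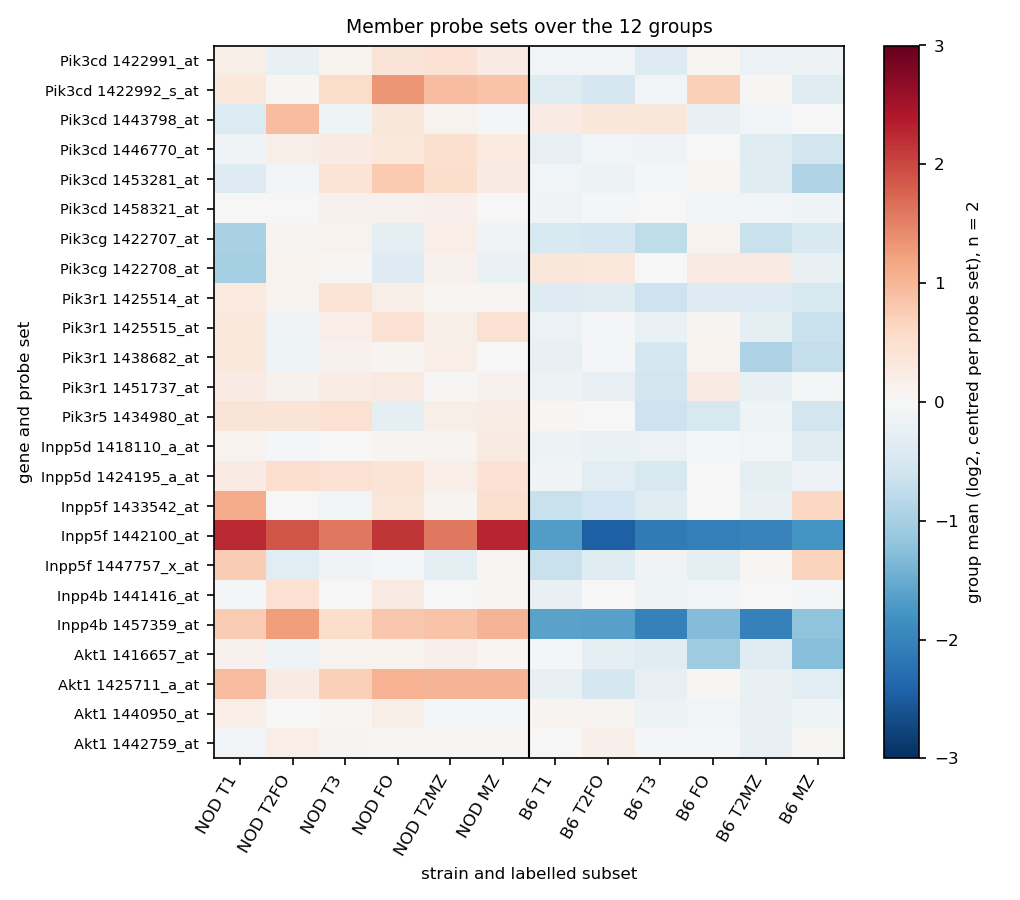
Group means of the 24 member probe sets (log2, centred per probe set, 2 arrays each), with the 6 NOD labels left of the 6 B6 subsets; red is above and blue below the probe set's median. The Inpp5f 1442100_at and Inpp4b 1457359_at rows divide by strain, and Pik3cg is bluest in the NOD arrays labelled T1.

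Other genes of the pathway were read from 4 lists, in the comparison over subsets that called 3.02% of all probe sets. Each gene named from these lists is given by its called probe sets. Uncalled probe sets of the same gene are given only for Pik3ap1, so agreement within the other genes is not shown. Of the other PI3K subunits and adaptors, 9 of 11 genes were measured here by 18 probe sets, and 1 was called over subsets, higher in NOD: Pik3ap1 (BCAP), a B cell adaptor that recruits PI3K. One of its probe sets differed by 2.50 ± 0.11 (adjusted p = 0.0103, limma), while the other gave -0.58 ± 0.12 (adjusted p = 0.0858), so its probe sets disagreed in sign. The median of the list was 0.01. Of the other phosphoinositide phosphatases, 23 of 24 genes were measured by 51 probe sets, 1 was called higher and 2 lower, and the median was 0.09. The myotubularin Mtm1 was higher by 1.16 ± 0.10 (adjusted p = 0.022), the 4-phosphatase Inpp4a was at -1.54 ± 0.14 (0.0236) and the myotubularin Mtmr2 at -1.11 ± 0.12 (0.0323).

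Among AKT and PIP3 effectors, 22 of 25 genes were measured by 51 probe sets, with a median of 0.02, and 1 was called: Gsk3b, a kinase that AKT inhibits, at -0.85 ± 0.11 (adjusted p = 0.0427, limma). Among FOXO factors and targets, 16 of 17 genes were measured by 34 probe sets, with a median of 0.10. The cell cycle inhibitor Cdkn1b was higher by 3.46 ± 0.29 (adjusted p = 0.022), and both called probe sets of Foxo3 were lower, at -0.75 ± 0.09 (0.0379) and -0.81 ± 0.12 (0.0485).

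Among the B6 subsets the F test called 1 probe set of the effectors, Plekha2 (adjusted p = 0.0361), and 2 of the FOXO list, Rag1 (0.0256) and Sesn3 (0.0225), with 0 of the other 2 lists (1.41% of all probe sets). In mature against transitional B6 cells 3.98% of all probe sets were called. From the list of other phosphatases 2 were higher, Mtmr3 (0.93 ± 0.20) and Mtmr6 (0.81 ± 0.21), and 2 were lower, Inpp5e (-0.54 ± 0.14) and Mtmr9 (-0.65 ± 0.15). That list takes in myotubularin family genes by name, and whether each product is an active phosphatase was not examined. The effectors had 0 higher and 3 lower: the translation repressor Eif4ebp1 (-1.41 ± 0.26), the PH-domain adaptor Plekha2 (-1.17 ± 0.20) and the exchange factor Vav1 (-0.73 ± 0.18). The FOXO list had 2 higher, Ccng2 (1.81 ± 0.44) and Sesn3 (0.86 ± 0.15), and 2 lower, Foxo1 (-0.95 ± 0.25) and the recombinase gene Rag1 (-0.56 ± 0.11).

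The probe sets most like each member were found by Pearson's r over the 12 group means, among single-gene probe sets of other genes. For Inpp5f 1442100_at they were Tgs1, BC018473 and Zfp800 (r of 0.99 each), and for 1433542_at Smc6 (0.98), Bivm (0.97) and Casp6 (0.96). For Pik3cg 1422708_at they were Akr1c12 (0.96), S100a10 (0.95) and Piwil1 (0.94), and for 1422707_at Spice1 (0.93), Rfk and Dipk1a (0.90 each). Inpp4b 1457359_at was nearest to Vps13a, Atrx and Cul5 (0.99 each), Akt1 1425711_a_at to Ppp6r1, Clta and Trpm7 (0.98 each), and Inpp5d 1424195_a_at to Cntrl (0.99), Arid4b and Lcorl (0.98 each). Pik3cd 1422992_s_at was nearest to Pknox1 (0.96), Rnf41 and Brwd1 (0.94 each), Pik3r1 1425514_at to Ankrd52 (0.98), Kansl1l and Gpx4 (0.97 each), and Pik3r5 to Rabep2 (0.96), Hectd3 and Dnmbp (0.94 each). These values describe 12 groups that share pools and 5' signal, and the best of many probe sets is high by selection.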

How the data were processed

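The deposited log2 values per probe set come from RMA, per the submitters' processing notes. Neither its version nor the log base is given in the sources used here. The base was taken as 2. Each probe set was found centred on its median over the 24 arrays (largest median 5e-07), so no filter on dim probe sets could be applied and none was. The annotation gave 1 gene to 34945 probe sets, several to 932 and none to 9160, and 64 were controls. NOD against B6 over subsets was tested with limma 3.58.1 (R 4.3.3) on the means of the 4 pools, by probe set and by gene (18193 genes). Other comparisons fitted 1 mean for each of the 12 groups with no pool term, so their p-values between the strains do not measure the spread between pools. P-values were adjusted by Benjamini-Hochberg over all 45037 probe sets. The fits were run on simulated data with independent noise on each array. These held no pool effect and no 5' classes, so they cannot show how the fits behave under either. Pools were taken from the replicate numbers, which the labels do not tie to a pool. Same-numbered NOD arrays deviated together with r from -0.04 to 0.51 (over 0.1 in 12 of 15 pairs). In B6 r was 0.73 to 0.87 among T1, T2FO, T3 and T2MZ and 0.71 between FO and MZ, but -0.62 to -0.37 across these sets, so the numbers do not pair all arrays and crossed numbers were tried. A random block for the pool gave a correlation of 0.112. Members and gene lists were chosen with earlier results of these data known. Genes of the other lists were named where called over subsets, among B6 subsets or in mature against transitional cells. Likeness took the 3 best probe sets of each gene's most variable probe set, and of 1433542_at and 1422708_at, added after their values were seen. Promoters were matched by symbol for all 8 genes. Plots used matplotlib 3.10.9 (Python 3.11.15).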

Additional observations from a re-analysis of the deposited data

Results flagged for a closer look

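The strain difference of Inpp5f probe set 1433542_at depended on the labelled subset (limma F test of the interaction, adjusted p = 0.0129). NOD minus B6 was 1.77 in T1, 0.59 in T2FO, 0.27 in T3, 0.35 in FO, 0.33 in T2MZ and -0.13 in MZ (log2). The NOD arrays labelled T1, at 1.13 and 1.08, had the transcripts Cr2 and Cd93 at 1.20 and -2.09, against -1.72 and 3.06 in B6 T1, and the part of the labels in the interaction was not tested.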

How the results depend on the processing

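Counts below are of called member probe sets, or genes where said. A count without its share of all probe sets or genes, here or above, cannot be read as a result about the members. Over subsets, 1 became 12 with the 24 arrays as independent (20.3% of all probe sets called), 0 with the 5' minus 3' covariate (0% of all; 1442100_at then at 5.12, adjusted p = 0.0877), 2 after quantile normalization (3.91%) and 3 of the 19 members kept with the less variable probe sets (SD under the median) left out (12.3%). With arrays as independent and the 6 low, 4 middle or 2 high 5' arrays of B6 left out (chosen after seeing the data) it was 9, 13 and 11 (21.6%, 27.3% and 21.1% of all). By gene it was 0 with the replicate block, with crossed numbers and with the covariate. It was 7 with independent arrays, which called 20.3% of all probe sets, and the share of all genes is not given. The replicate block gave 7 in T1, 4 in T2FO, 5 in T3, 2 in FO, 2 in T2MZ, 3 in MZ, 1 in B6 MZ against FO and 2 in B6 mature against transitional. The covariate, with 1.55% to 18.5% of all probe sets called, gave 7 in T1, 4 in T2FO, 4 in T3, 3 in FO, 4 in T2MZ, 3 in MZ, 3 among B6 subsets, 3 among NOD labels, 2 for the interaction, 1 for MZ against FO and 3 for mature against transitional. Quantile normalization gave 2 in T2FO, FO, T2MZ and MZ (2.32% to 3.9% of all). Leaving out the less variable probe sets gave 0 among NOD labels. Fitting only the arrays compared, with fewer degrees of freedom, gave 0 in T2FO, T3, B6 subsets and mature against transitional, and 3 among NOD labels. With B6 FO and MZ numbers crossed between pools the block gave 2 for B6 subsets, 2 for the interaction and 3 for mature against transitional (chosen after seeing the data). Leaving out 1 array or pool leaves 1 in its group or strain, so counts of calls from these fits are not given here. Where not shown by the construction, the cause was not tested. Of 283 alternative values of single member probe sets, 243 kept their side of the threshold, 23 lost the call, 17 gained it and 0 called values changed sign. The difference at 1442100_at over subsets ran from 3.79 to 5.12. No filter on dim probe sets could be run on centred values, and signal over background is unknown.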
